A study of Mus musculus with 9 samples.

Results

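The genes described here are 7 matrix metalloproteinases (MMPs), Mmp2, Mmp9, Mmp11, Mmp13, Mmp14, Mmp16 and Mmp23, and 3 tissue inhibitors of metalloproteinases (TIMPs), Timp1, Timp2 and Timp3. They were chosen by name, with earlier results of these data known, as 10 of the 39179 genes in the count tables. Each was found once by its Ensembl identifier. RNA had been sequenced from single capillaries cut out by laser microdissection together with the cells around them, taken from the ossification front (OF) of the femur, where vessels meet the growth plate. Many such pieces were collected into each sample. The juvenile group was 5 libraries from mice aged 4 weeks and the adult group 4 libraries from mice aged 12 weeks. Mice of both ages carried the Tg(TIE2GFP)287Sato/J reporter on C57BL/6, in which the Tie2 promoter drives GFP in endothelial cells. No treatment and no other allele distinguished the ages. Each library thus mixes endothelium with bone-forming, bone-resorbing and marrow cells, and in such a mixture fewer cells of a type and less RNA per cell cannot be told apart. The paper compares juvenile samples between different mice, but separate mice per library are not stated in the labels. The p-values thus measure the spread between these libraries.

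MMPs are zinc-dependent endopeptidases that are made as inactive proenzymes and cleave collagens and other matrix proteins once the propeptide is removed. TIMPs are small proteins that bind the catalytic zinc and block the enzyme. At the OF, MMPs released by osteoclasts, hypertrophic chondrocytes, osteoblasts and vessels are known to remove cartilage matrix ahead of the invading capillaries. Some TIMPs also have a part in activation, as Timp2 bridges membrane-bound Mmp14 to the proenzyme of Mmp2.

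The chemical feature that joins the MMP members and sets them apart from the TIMPs is the zinc-binding stretch of the catalytic domain. It reads histidine, glutamate, any 2 residues, histidine, any 2 residues, glycine, any 2 residues, histidine. An in-frame search of the longest coding transcript of each member in GENCODE M21 (GRCm38) found it once in each of the 7 MMPs and in none of the 3 TIMPs. The 33 bases are shown 5′ to 3′ on the coding strand, with the 5 codons that the search fixed in capitals. The exon number counts from the transcript's start.
Mmp2, chr8:92839279-92839311, + strand, exon 8: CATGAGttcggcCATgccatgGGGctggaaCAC
Mmp9, chr2:164951133-164951165, + strand, exon 8: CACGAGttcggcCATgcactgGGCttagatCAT
Mmp11, chr10:75926931-75926963, - strand, exon 5: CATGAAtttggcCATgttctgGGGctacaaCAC
Mmp13, chr9:7276573-7276605, + strand, exon 5: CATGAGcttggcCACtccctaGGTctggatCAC
Mmp14, chr14:54437627-54437659, + strand, exon 5: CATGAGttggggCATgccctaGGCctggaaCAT
Mmp16, chr4:18051748-18051780, + strand, exon 5: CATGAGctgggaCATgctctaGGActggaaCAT
Mmp23, chr4:155651528-155651560, - strand, exon 5: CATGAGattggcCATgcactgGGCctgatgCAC
Each stretch lay within 1 exon. Between 22 and 29 of the 33 bases were identical between a pair of MMPs, with Mmp14 and Mmp16, both membrane-anchored enzymes, at the upper end. These stretches are short beside the coding sequences of 1173 bases for Mmp23 to 2190 bases for Mmp9, and how the counting treated reads shared between genes is not given in the sources used here.

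The samples were first checked against their label. Endothelial markers such as Cdh5 (at least 45.2 CPM, the count scaled to library size) and Egfl7 (at least 177 CPM) were present in every library, and 0 of the 12 endothelial markers passed the test for age. Summed, these 12 were at 660 to 1060 CPM in juvenile and 804 to 1020 CPM in adult libraries. The lowest single value was that of Erg, 0.125 CPM in an adult library. Other cell types moved with age. The summed level of 12 osteoblast markers was 97000 to 121000 CPM in juvenile and 36300 to 56700 CPM in adult libraries. Of these markers, 6 were called higher in juvenile mice and 1, Bglap, in adult mice. Col1a1 alone was at 63500 to 82600 CPM in juvenile and 23400 to 34000 CPM in adult libraries. Summed over 12 osteoclast markers, the level was 9450 to 14600 CPM in juvenile and 15400 to 21900 CPM in adult libraries, with 4 markers higher in adult. Of this sum, Acp5 alone was at 6440 to 8550 CPM in juvenile and 10900 to 16100 CPM in adult libraries. Neutrophil markers summed to 10.9 to 69.5 CPM in juvenile libraries and, in adult replicates 1, 3 and 4, to 3560 to 4540 CPM, against 98.7 CPM in adult replicate 2, and 9 of the 11 tested were higher in adult. Of these 9, S100a8 was at 0 to 16.9 CPM in juvenile and 26.9 to 1350 CPM in adult libraries. Ly6g, too low to be tested, was at 0 in every juvenile library and at 0 to 2.35 CPM in adult libraries. Erythroid markers also rose, from 420 to 2560 CPM in juvenile to 4750 to 37000 CPM in adult libraries, with 8 of 9 called. Adult replicate 2 had the highest level of growth plate chondrocyte markers, 7330 CPM against 2620 to 4530 CPM elsewhere. Of the 11 tested, Col2a1 (log2 fold change, juvenile minus adult, of -2.62) and Comp (-5.03) were called higher in adult mice. Col11a2 (0.80) was called higher in juvenile mice. Reads of the Y-linked gene Ddx3y were found in juvenile replicates 4 and 5 (524 and 439 counts), with at most 1 count in any other library. Xist, an RNA of female cells, had 11 and 1 counts in these libraries and 2965 to 6598 counts in the others. By these genes, juvenile replicates 4 and 5 were male and all adult libraries female. Sex was thus not balanced between the ages, and the calls below were repeated without juvenile replicates 4 and 5. Library totals were 4856833 to 7398483 counts in juvenile and 5821596 to 8077362 counts in adult libraries, and all members had counts in all 9 libraries.

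To learn which members changed between active bone growth and adulthood, the 13418 genes that passed a filter on low counts were fitted in edgeR (quasi-likelihood test), and a gene was called at a Benjamini-Hochberg adjusted p under 0.05. Of the 10 members, all tested, 3 were called, and these 3 were higher in juvenile mice: the inhibitor Timp1 and the proteinases Mmp2 and Mmp23. None was called higher in adult mice. Over all genes tested, 3.88% were called, of which those higher in juvenile mice made up 1.99% of the tested genes and those higher in adult mice 1.89%. At an unadjusted p under 0.05 there were 4 members, the fourth being Timp2. The median log2 fold change (juvenile minus adult) of the members was 0.57, against -0.007 over all genes tested, and 9 of the 10 values were positive, against 49.5% of all genes tested. Normalized counts, which are counts scaled to a common library size, did not overlap between the ages for the same 3 members, against 9.15% of all genes tested.

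**Figure D1:**
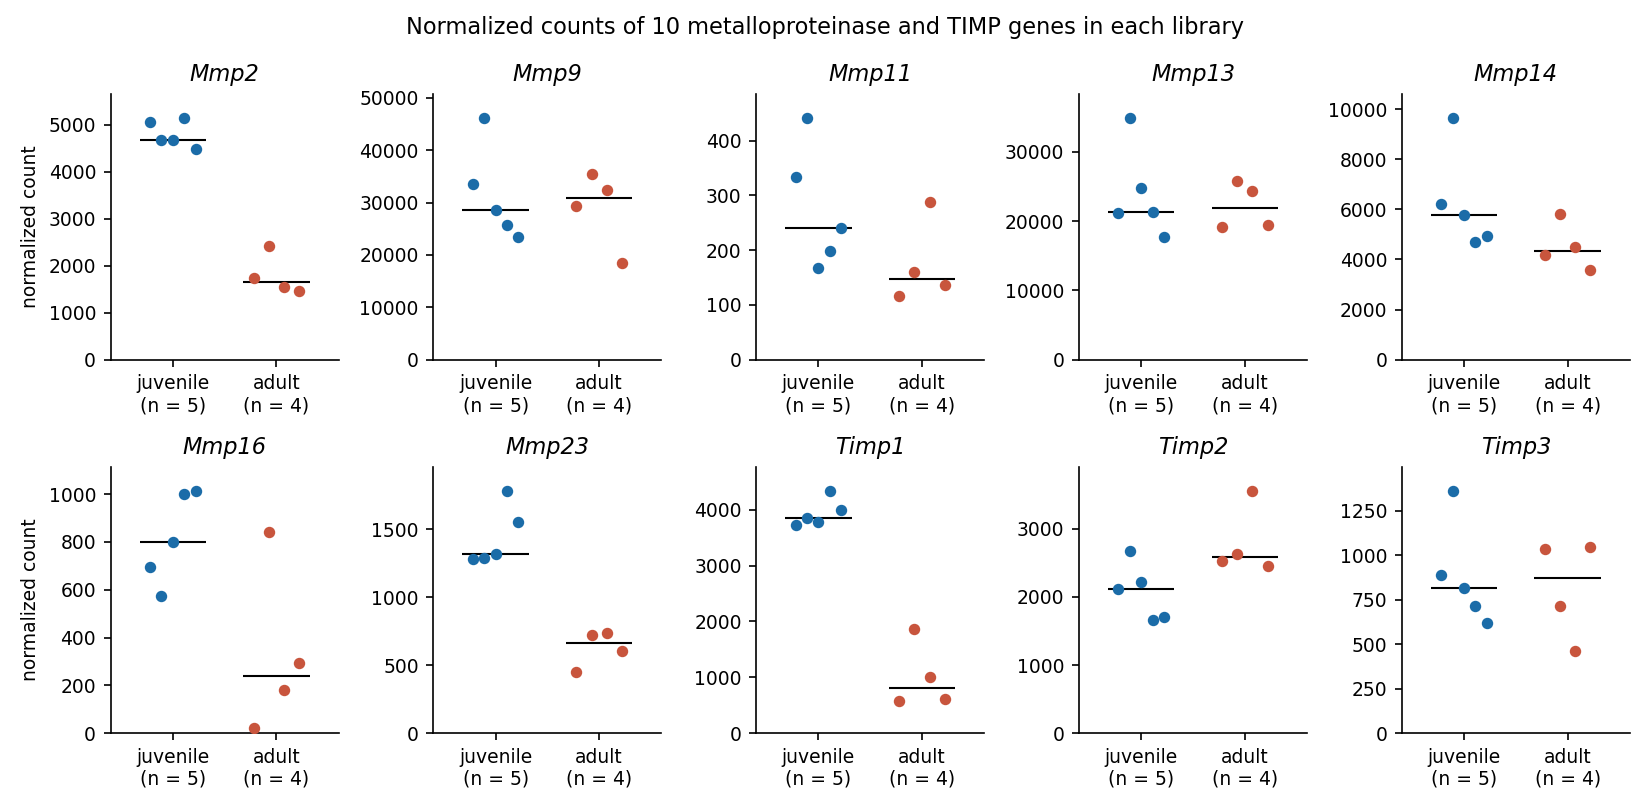
Normalized counts (y axis, from 0, a separate scale in each panel) of the 10 members in 5 juvenile and 4 adult libraries; points are libraries and bars are group medians. The juvenile points of Mmp2, Mmp23 and Timp1 lie above every adult point, whereas those of the other members overlap with the adult points.

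**Figure D2:**
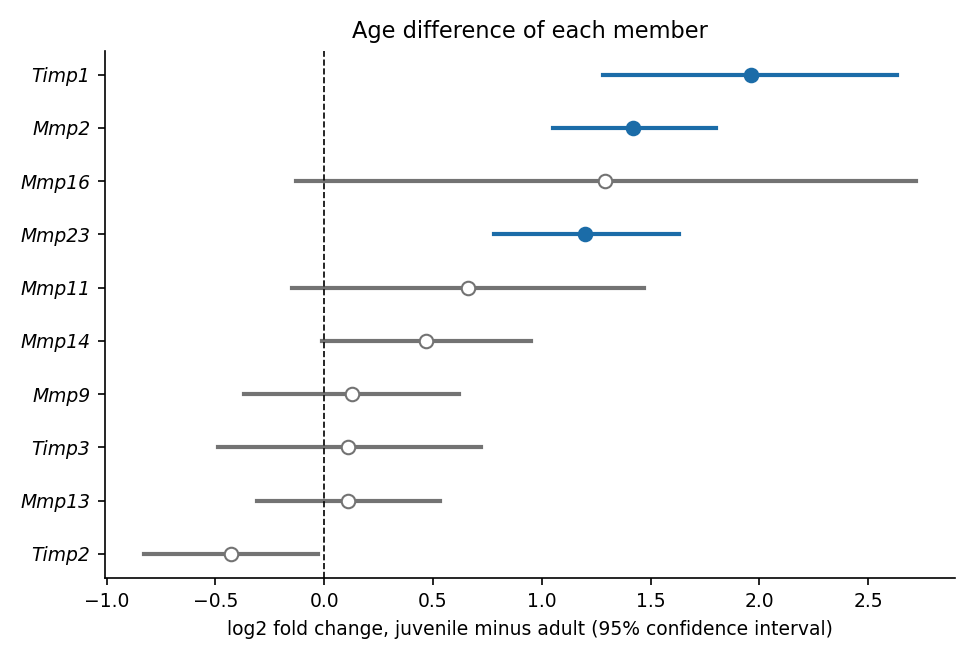
Log2 fold change (x axis, juvenile minus adult) of each member from edgeR, with lines for the 95% confidence interval of the fit before adjustment over genes; filled points were called at an adjusted p under 0.05. Timp1, Mmp2 and Mmp23 are the filled points, at 1.96, 1.42 and 1.20.

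Timp1, a secreted inhibitor that binds many MMPs and the proenzyme of Mmp9, had the largest log2 fold change among the members. Its normalized counts in juvenile replicates 1 to 5 were 3723, 3853, 3789, 4333 and 3994. In adult replicates 1 to 4 they were 568, 1873, 1003 and 614. All juvenile libraries were close together and well above the adult ones, which spread widely, with adult replicate 2 highest. Timp1 was 3.88-fold higher in juvenile mice (log2 fold change 1.96 ± 0.31 SE, 95% confidence interval 1.28 to 2.63, adjusted p = 0.00538). An exact permutation test of the libraries gave p = 0.00794, which is the smallest value that 5 libraries against 4 allow. Without adult replicate 2 the log2 fold change was 2.41, and without juvenile replicates 4 and 5 together it was 1.90 and was no longer called (adjusted p = 0.0669).

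Timp1 lies at chrX:20870166-20874735 (GRCm38, + strand) inside an intron of Syn1, a neuronal gene on the opposite strand, with no exonic overlap. The 3 tested genes with a pattern nearest to Timp1 were Serpinf1, Tcf7 and Nckap5l, at a root mean square difference of 0.339 to 0.363 on the log2 scale over the 9 libraries after each gene was centred. Serpinf1 encodes a secreted glycoprotein of bone matrix that is known to inhibit angiogenesis, and Tcf7 a transcription factor of the Wnt pathway. Their log2 fold changes of 1.98 to 2.18 follow from this choice and are a description only.

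Mmp2, also called gelatinase A, degrades denatured collagen and basement membrane collagen and is made mainly by mesenchymal cells. The gene lies at chr8:92827291-92853420 (GRCm38, + strand) and overlaps with no other annotated exon. The normalized counts were 5070, 4682, 4687, 5155 and 4480 in juvenile replicates 1 to 5 and 1750, 2416, 1546 and 1466 in adult replicates 1 to 4. Every juvenile library was above every adult library, and the juvenile ones varied little, with a coefficient of variation of 5.93% against 24.0% in adult libraries. Mmp2 was 2.68-fold higher in juvenile mice (log2 fold change 1.42 ± 0.17 SE, 95% confidence interval 1.05 to 1.80, adjusted p = 0.00109 from edgeR). It was called in each of the 19 alternative fits, and without juvenile replicates 4 and 5 the adjusted p was 0.022.

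Mmp23 encodes a small proteinase that is anchored in the membrane near its start and released by furin-type cleavage. It lies at chr4:155650655-155653384 (GRCm38, - strand), also without exonic overlap. Juvenile replicates 1 to 5 had normalized counts of 1279, 1285, 1320, 1778 and 1550. The values of adult replicates 1 to 4 were 451, 718, 734 and 606. The lowest juvenile library was thus above the highest adult library. Mmp23 was 2.30-fold higher in juvenile mice (log2 fold change 1.20 ± 0.20 SE, 95% confidence interval 0.78 to 1.63, adjusted p = 0.00626 from edgeR). Without juvenile replicates 4 and 5, which had the highest counts of the group, its log2 fold change was 1.05 and it was no longer called (adjusted p = 0.0815). Of the 45 pairs of members, Mmp2 and Mmp23 differed by 0.297 in their centred log2 pattern, a distance that only the 3 pairs among Mmp9, Mmp13 and Mmp14 undercut. The summed osteoblast markers given above, of which Col1a1 was the largest part, moved in the same direction as Timp1, Mmp2 and Mmp23. Of the called markers, Bglap alone moved the other way (log2 fold change -2.04). The part of osteoblasts in these 3 differences was not tested.

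Promoter sequences of 7 of the 10 members were held in the RefSeq table used here (GRCm38.p6), and Mmp2, Mmp9 and Mmp16 had no entry. The 250 bases before the start are shown for Timp1 and Mmp23, which were higher in juvenile mice, and for Mmp13, which was abundant at both ages. Capitals mark matches on either strand to 4 short motifs. The first is TGACTCA, bound by AP-1, the family of Fos and Jun. Another, bound by Runx factors such as the osteoblast regulator Runx2, is ACCACA in its core. The GC box, bound by Sp factors, was searched as GGGCGG in every window. The last motif, found near the start of many regulated genes, is the TATA box, searched as TATAAA here.
Timp1, chrX:20869916-20870165, + strand: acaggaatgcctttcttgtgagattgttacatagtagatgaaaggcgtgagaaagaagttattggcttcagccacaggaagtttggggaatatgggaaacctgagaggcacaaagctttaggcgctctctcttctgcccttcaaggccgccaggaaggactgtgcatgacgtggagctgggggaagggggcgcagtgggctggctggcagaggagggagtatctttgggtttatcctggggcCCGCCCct
Mmp23, chr4:155653385-155653634, - strand: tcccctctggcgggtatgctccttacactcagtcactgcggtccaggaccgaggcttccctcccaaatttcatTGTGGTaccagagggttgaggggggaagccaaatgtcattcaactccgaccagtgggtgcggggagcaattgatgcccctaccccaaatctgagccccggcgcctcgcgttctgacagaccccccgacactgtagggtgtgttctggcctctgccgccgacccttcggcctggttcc
Mmp13, chr9:7272264-7272513, + strand: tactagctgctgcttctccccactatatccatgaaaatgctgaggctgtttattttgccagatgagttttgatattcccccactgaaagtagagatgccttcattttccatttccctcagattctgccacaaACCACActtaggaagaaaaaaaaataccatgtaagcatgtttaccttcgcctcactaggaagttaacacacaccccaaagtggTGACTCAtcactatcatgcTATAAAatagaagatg
In the Mmp13 window an AP-1 match began 35 bases, a Runx core match 118 bases and a TATA match 16 bases before the start. The Timp1 window held 1 GC box, 8 bases before the start, and the Mmp23 window 1 Runx core match, 177 bases before it. Mmp23 had 2 entries, of which the one nearest to its annotated start is shown. Members that were not called also held these motifs. GC boxes were found in the windows of Mmp11, Mmp14, Timp2 and Timp3, and a Runx core match in that of Mmp14. Among all 32851 promoters of the table, 4.46% held the AP-1 letters in a window of this length, 14.0% the Runx core, 32.7% the GC box and 12.4% the TATA letters. A match is a description of the letters in the window, which the counts do not test.

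Mmp9 and Mmp13 were the most abundant members and showed no difference with age past the threshold. Mmp9, or gelatinase B, is made in bone mainly by osteoclasts and also by neutrophils and vessel cells. In juvenile replicates 1 to 5 its normalized counts were 33596, 46229, 28557, 25659 and 23447, and in adult replicates 1 to 4 they were 29425, 35377, 32346 and 18373. The highest library was juvenile and the lowest adult, and the ranges overlapped. Mmp9 had a log2 fold change of 0.13 ± 0.23 SE (95% confidence interval -0.37 to 0.62, edgeR adjusted p = 0.86). As a fold of juvenile over adult, this interval runs from 0.776 to 1.53. Of the osteoclast markers, 4 of 12 were called higher in adult mice (Acp5, Atp6v0d2, Nfatc1 and Car2), and of the tested neutrophil markers 9 of 11. The other osteoclast markers were not called, with log2 fold changes from -0.5 for Tnfrsf11a to 0.35 for Ocstamp. The part of osteoclasts and neutrophils in the Mmp9 counts was not tested.

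Mmp13, a collagenase of hypertrophic chondrocytes and osteoblasts, behaved in a similar way. Its normalized counts in juvenile libraries were 21125, 34914, 24829, 21318 and 17757, and in adult libraries 19164, 25776, 24406 and 19464. Juvenile replicate 2 stood highest, as for Mmp9, and all other libraries of both ages were intermixed. The log2 fold change was 0.11 ± 0.19 SE (95% confidence interval -0.31 to 0.53, edgeR adjusted p = 0.852). No direction can be read for Mmp9 and Mmp13, since without juvenile replicate 2 their log2 fold changes were both -0.06, and scaling by library totals alone gave -0.04 and -0.06. The part of chondrocytes and osteoblasts in the Mmp13 counts was not tested.

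Mmp14 is a membrane-anchored collagenase that also activates the proenzyme of Mmp2. The juvenile libraries had normalized counts of 6208, 9660, 5766, 4684 and 4946, the adult ones of 4182, 5796, 4482 and 3589. Juvenile replicate 2 was again the highest library, and 3 juvenile libraries fell within the adult range. Its log2 fold change was 0.47 ± 0.22 SE (95% confidence interval -0.01 to 0.95, edgeR adjusted p = 0.302). Mmp9, Mmp13 and Mmp14 were the members with the most similar patterns, at centred log2 distances of 0.213 to 0.233 from each other. The 3 nearest of all tested genes were Map2k1, Arhgap17 and Tfdp1 for Mmp9 (0.105 to 0.176), Hnrnpk, Psma4 and Ap2s1 for Mmp13 (0.120 to 0.162) and Rarg, Myo1e and Tpm4 for Mmp14 (0.149 to 0.174).

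Mmp16, a relative of Mmp14 that is also held in the membrane, had the widest relative spread of the members among adult libraries. Normalized counts of 696, 574, 799, 1000.0 and 1012 were found in juvenile replicates 1 to 5. Among adult replicates 1 to 4 they were 19.6, 842, 181 and 293, a 43.0-fold range. Of the adult libraries, 3 lay below all juvenile ones, whereas adult replicate 2 lay among them. Mmp16 had a log2 fold change of 1.29 ± 0.66 SE, almost as large as that of Mmp2, but it was not called (95% confidence interval -0.13 to 2.72, edgeR adjusted p = 0.344). The exact permutation test of this gene alone gave p = 0.0317. Without adult replicate 2 the value was 2.29 (adjusted p = 0.0535) and without adult replicate 1 it was 0.89 (adjusted p = 0.289).

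Mmp11, known as stromelysin-3 and activated inside the cell by furin, was the member with the lowest counts in juvenile mice. Its normalized counts were 333, 442, 168, 199 and 241 in juvenile and 116, 159, 289 and 136 in adult libraries. Only adult replicate 3 fell within the juvenile range. The log2 fold change of 0.66 ± 0.38 SE did not pass the test (95% confidence interval -0.15 to 1.47, edgeR adjusted p = 0.407). Mmp11 shares 155 exonic bases with Chchd10 on the opposite strand, and as the library kit does not mark strand, reads in that stretch cannot be told apart.

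Of the TIMPs, Timp2 was the only member with a negative log2 fold change. The juvenile normalized counts were 2111, 2678, 2217, 1662 and 1712, and the adult ones 2526, 2634, 3553 and 2452. All adult libraries but replicate 3 were below juvenile replicate 2, and they were above the other 4 juvenile libraries. The log2 fold change was -0.43 ± 0.18 SE (95% confidence interval -0.83 to -0.03), and it did not hold after adjustment over genes (adjusted p = 0.247, edgeR). The exact permutation test gave p = 0.0556.

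Timp3, an inhibitor that binds to the matrix and also blocks ADAM proteinases, had normalized counts of 891, 1360, 816, 716 and 619 in juvenile and 1034, 713, 463 and 1045 in adult libraries. The ages were intermixed. No direction can be given, as the log2 fold change of 0.11 ± 0.28 SE (95% confidence interval -0.49 to 0.72, edgeR adjusted p = 0.902) became -0.10 without juvenile replicate 2 or without adult replicate 3, and -0.07 when scaled by library totals alone. Timp3 lies within Syn3 on the opposite strand and shares 1733 exonic bases with it, so that reads of either gene in this stretch cannot be told apart without strand.

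To compare the members with each other, counts were divided by the summed exon length of each gene and scaled to the same total in each library (TPM, a share of the length-scaled total). These length-scaled levels are a description with no test. In juvenile mice the medians were 3410 TPM for Mmp9, 3180 TPM for Mmp13 and 1810 TPM for Timp1, followed by 587 TPM for Mmp2, 406 TPM for Mmp14, 239 TPM for Mmp23 and 211 TPM for Timp2. Timp3 (42.4 TPM), Mmp16 (39.0 TPM) and Mmp11 (35.8 TPM) formed a lower tier. Ranges of neighbours overlapped for Mmp9 and Mmp13, for Mmp2 and Mmp14, for Mmp23 and Timp2 and within the lower tier, and did not overlap at the other steps of this order. The order of Mmp2 and Mmp14 also depended on the length used. With the longest transcript as length, the juvenile medians were 595 TPM for Mmp14 and 509 TPM for Mmp2.

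In adult mice the order of levels began alike, with medians of 3380 TPM for Mmp9 and 3160 TPM for Mmp13, and then differed. Timp1 again came next but at 350 TPM, with a range of 254 to 809 TPM that overlapped with Mmp14, at a median of 282 TPM. This order depended on the length used. Scaled by the longest transcript, the adult medians were 412 TPM for Mmp14 and 280 TPM for Timp1. Timp2 (258 TPM) stood above Mmp2 (190 TPM), which it had been below in every juvenile library, although the adult ranges of this pair overlapped. Mmp23 followed at 109 TPM, then Timp3 at 41.9 TPM, Mmp11 at 20.6 TPM and Mmp16 at 10.6 TPM. Ranked by length-scaled level among the tested genes, Mmp9 was between 19 and 35 in juvenile and 29 and 52 in adult libraries, while Timp1 was between 44 and 57 in juvenile and 122 and 515 in adult libraries.

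**Figure D3:**
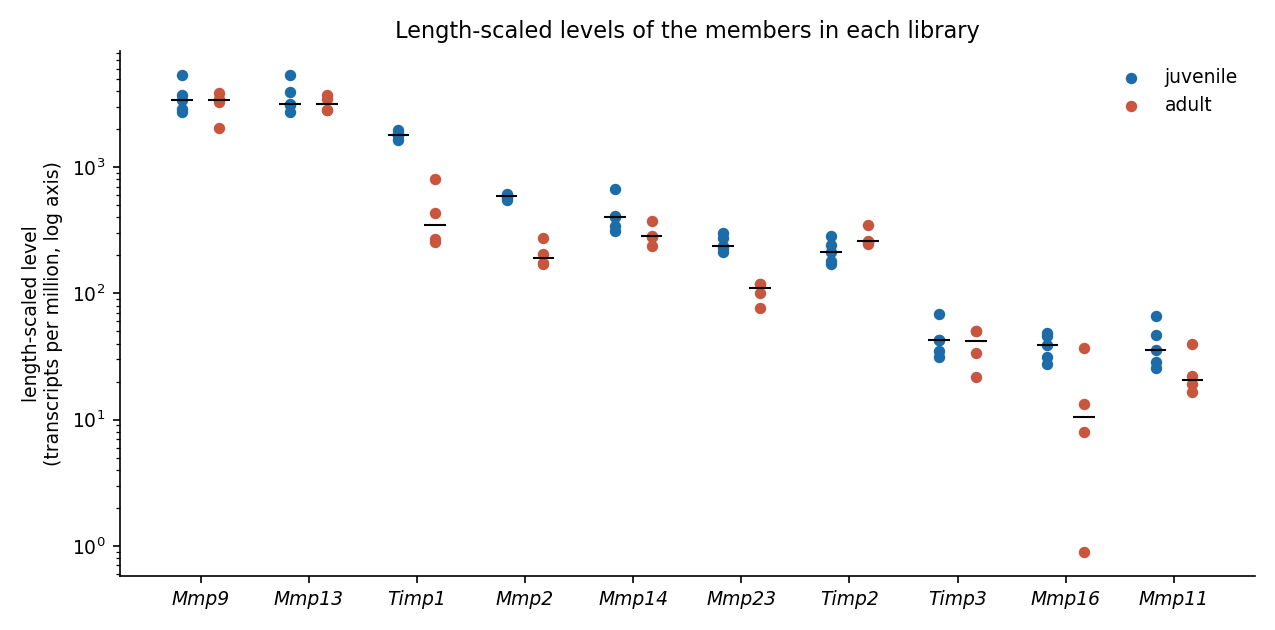
Length-scaled levels (y axis, TPM, log axis) of the 10 members, ordered by the juvenile median, in 5 juvenile and 4 adult libraries; points are libraries and bars are medians. Mmp9 and Mmp13 lie together at the top at both ages, and the medians of Timp1 are 1810 in juvenile and 350 in adult libraries.

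Ratios of length-scaled levels put enzymes beside inhibitors within each library and do not depend on the scaling between libraries. They describe RNA and not enzyme activity, and were not tested. How often ratios of other gene pairs do not overlap between the ages was not computed. The ratio of Mmp9 to Timp1 was 2.26, 3.01, 1.89, 1.49 and 1.47 in juvenile replicates 1 to 5 and 13.0, 4.74, 8.09 and 7.51 in adult replicates 1 to 4, with no overlap. For Mmp13 to Timp1 the ranges were 1.48 to 3.01 in juvenile and 4.57 to 11.2 in adult libraries. Both ratios were higher in each adult library, in which Timp1 was lower while Mmp9 and Mmp13 overlapped with the juvenile levels.

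For Mmp2 and Mmp14 against Timp2 the order was the opposite. The ratio of Mmp2 to Timp2 was 2.02 to 3.58 in juvenile and 0.503 to 1.06 in adult libraries, and that of Mmp14 to Timp2 was 1.70 to 2.36 in juvenile and 0.825 to 1.44 in adult libraries. Neither pair overlapped between the ages. Mmp2 itself was lower in each adult library, while the levels of Mmp14 and Timp2 overlapped between the ages. The size of the Mmp14 to Timp2 ratio depended on the length used, with medians of 1.89 and 1.02 for the summed exons and 3.31 and 1.79 for the longest transcript, juvenile before adult.

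Summed over members, the MMP level was 6730 to 12400 TPM in juvenile and 5420 to 8360 TPM in adult libraries, which overlapped. The summed TIMP level was 1890 to 2150 TPM in juvenile and 562 to 1100 TPM in adult libraries, which did not overlap. The ratio of the sums was therefore 3.25 to 5.76 in juvenile and 7.58 to 12.0 in adult libraries. Timp1 made up 83.6% to 90.5% of the summed TIMP level in juvenile and 45.2% to 73.4% in adult libraries, with the highest adult share in replicate 2. Mmp9 and Mmp13 made up 81.4% to 87.3% of the summed MMP level in juvenile and 90.0% to 91.7% in adult libraries.

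**Figure D4:**
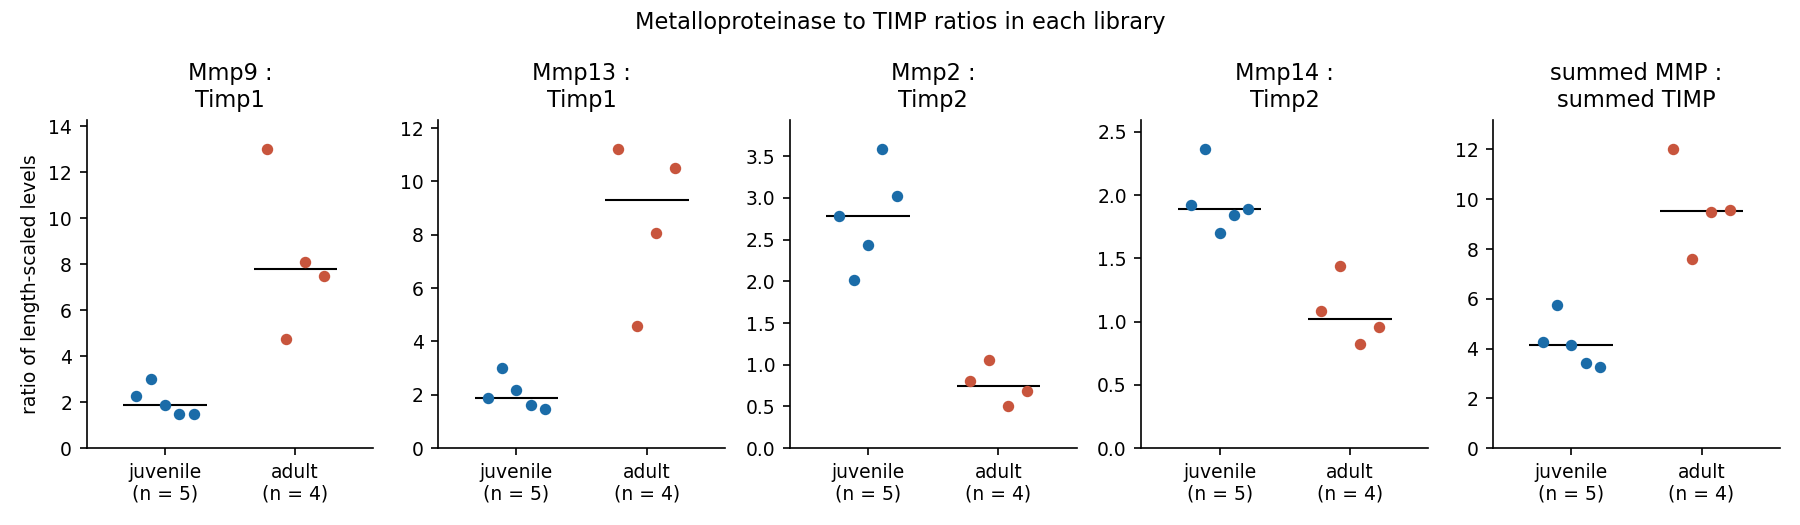
Ratios of length-scaled levels (y axis, from 0, a separate scale in each panel) in 5 juvenile and 4 adult libraries; points are libraries and bars are medians. The ages do not overlap in any of the 5 panels. Adult values are higher for the ratios to Timp1 and for the summed ratio, and lower for the ratios of Mmp2 and Mmp14 to Timp2. The panels share genes, with Timp1 also a part of the summed ratio, so they are not separate results.

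The remaining 17 MMP and TIMP genes were scarce. Of these, 7 passed the filter on low counts (Mmp8, Mmp12, Mmp15, Mmp17, Mmp19, Mmp24 and Mmp28), and edgeR called 0 of them, with 0 at an unadjusted p under 0.05. Mmp24, a membrane-type enzyme, had 102 to 274 normalized counts. Mmp8, the collagenase of neutrophils, had 50.7 to 86.5 in juvenile and 0 to 82.7 in adult libraries. Mmp17 was the only one of the 7 whose ages did not overlap, at 43.9 to 206 in juvenile and 0 to 43.2 in adult libraries (log2 fold change 1.64 ± 0.98 SE, edgeR adjusted p = 0.44), beside 9.15% of all genes tested. The other 4 had log2 fold changes of -0.27 for Mmp28, -0.08 for Mmp12, 0.00 for Mmp15 and 0.12 for Mmp19. DESeq2, run as an alternative, called 1 gene, Mmp10, which the filter of the main test had removed and which had 0 to 122 normalized counts in juvenile and 0 in all adult libraries. Mmp1b, Mmp7, Mmp20 and Timp4 were at 0 in every library, where 3 counts would correspond to 0.371 to 0.618 CPM, a limit that covers counting error only.

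Among 26 activators, inhibitors and partners of MMPs, 20 were tested and 2 were called, both higher in juvenile mice, against 1.99% of all genes tested. Pcsk6 is a proprotein convertase of the furin family, which includes enzymes that remove MMP propeptides. It had 2046 to 2446 normalized counts in juvenile and 883 to 1271 in adult libraries (log2 fold change 1.08 ± 0.16 SE, adjusted p = 0.00382). Lrp1, an endocytic receptor that clears MMPs and their complexes with TIMPs, had 1566 to 2022 in juvenile and 809 to 1412 in adult libraries (log2 fold change 0.84 ± 0.19 SE, adjusted p = 0.0292). Pcsk6 was called whichever library was left out, whereas Lrp1 remained called only without juvenile replicate 1 or adult replicate 2, and its adjusted p was 0.06 to 0.0806 without any one of the others. Without adult replicate 2, 5 of these genes were called, beside 651 of all genes. Lrp1, Pcsk6 and Plat were then higher in juvenile mice. Lcn2 (log2 fold change -10.42) and Thbs1 (-1.42) were higher in adult mice.

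Furin itself did not pass the test (log2 fold change 0.45 ± 0.23 SE, adjusted p = 0.336, edgeR), and neither did Reck, a membrane-anchored MMP inhibitor, at 0.87 ± 0.57 SE (adjusted p = 0.494). Bsg, a surface glycoprotein known to induce MMPs, was at -0.02 ± 0.17 SE (adjusted p = 0.974). Mrc2, an endocytic receptor for collagen fragments, was at 0.70 ± 0.22 SE (adjusted p = 0.0957). Plau, the urokinase gene, was too low to be tested, with 0 to 44.3 normalized counts in adult and 2.71 to 30.7 in juvenile libraries. The median log2 fold change of the 20 tested genes was 0.24, and 11 of them were positive, against -0.007 and 49.5% over all genes tested.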

How the data were processed

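The authors cut single capillaries with surrounding cells from unfixed, undecalcified, snap-frozen femurs, amplified poly-A RNA with a Smart-Seq kit, sequenced 75 bp paired-end reads and mapped them to mm10 with TopHat2 and Bowtie2 at default settings; the labels also list featureCounts. Tool versions, the strand setting and the annotation release are not given in the sources used here. The authors deposited whole-number counts per Ensembl gene, 1 table per library, not normalized. Symbols, positions and exon lengths came from GENCODE M21 (GRCm38), which held 96.2% of the 39179 identifiers.

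Ages (5 juvenile and 4 adult libraries, grouped by their labels) were compared with edgeR 4.0.16 in R 4.3.3: filterByExpr, TMM scaling, quasi-likelihood F test without covariates, Benjamini-Hochberg adjustment over 13418 genes, called under 0.05. For single genes, mean log2 CPM (prior count 2) was also tested by exact permutation of the libraries, two-sided. Normalized counts are counts divided by the relative effective library size. Standard errors were derived from the log2 fold change and F. Totals of 4856833 to 8077362 counts set the precision, and floors of 3 counts cover counting error only. No 2 libraries were copies. The fits were also run on simulated counts with the same spread per gene at both ages and no sex difference. Such counts do not cover a spread that differs between the ages or the unbalanced sex of these libraries. No column was left unused.

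Named were the 10 members, the tested genes of the other MMPs and TIMPs, called regulators together with Reck, Bsg, Furin, Plau and Mrc2, and the 3 genes nearest in pattern to Mmp9, Mmp13, Mmp14 and Timp1; other genes were named after their values were seen. Members and lists were chosen with earlier results of these data known. Alternatives were DESeq2 1.42.0, limma 3.58.1 voom with quality weights, other scalings and filters, a replicate block, fits without certain gene classes or without juvenile replicates 4 and 5, each library left out, a prior count of 0.5 and the longest transcript as length.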

Additional observations from a re-analysis of the deposited data

Results flagged for a closer look

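Timp2 in adult replicate 3 stood apart from its group, with a normalized count of 3553 against 2452 to 2634 in the other 3 adult libraries. The gap to the nearest library was 0.834 of the range of the group. It was the only value to stand apart among the 30 groups of libraries examined in this way, where chance alone gives about 1.5.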

How the results depend on the processing

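Timp1, Mmp2 and Mmp23 were called higher in juvenile mice in all 9 fits with 1 library left out, and no member was called higher in adult mice in any fit. Leaving out juvenile replicates 4 and 5 together left 1 member called higher in juvenile mice (Mmp2), 73 of all genes and 1 of the regulator and partner genes; this fit has fewer libraries.

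With the replicate block, 2 members (Mmp2 and Timp1), 89 of all genes and 1 of the regulator and partner genes were called, and Mmp23 had a log2 fold change of 1.19 (adjusted p = 0.0555). The labels do not say whether the numbers pair the libraries. Over all tested genes, deviations of same-numbered libraries from their age means had correlations of -0.0318 to 0.0303. These were not compared with differently numbered libraries, so they cannot decide whether same-numbered libraries belong together. DESeq2 with its default settings called 1492 of all genes, 1 of the other MMP and TIMP genes and 5 of the regulator and partner genes; the cause was not tested.

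With 1 library left out, 262 to 651 of all genes were called, against 520 with all 9, with 332, 293, 275 and 262 without juvenile replicates 2, 3, 4 and 5, and 1 to 5 regulator and partner genes. The direction of 3 members that were not called reversed. Scaling by library totals, which moved the median of all genes to -0.178, gave log2 fold changes of -0.04 for Mmp9, -0.06 for Mmp13 and -0.07 for Timp3. With 1 library left out, the values were -0.06 to 0.22 for Mmp9, -0.06 to 0.20 for Mmp13 and -0.10 to 0.24 for Timp3. Mmp9 was at -0.06 without juvenile replicate 2 or adult replicate 4. Depth limits the scarce genes, for which a count of 3 is up to 0.618 CPM.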
